A study of Mus musculus with 6 samples.

Results

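The Xlr genes form a multicopy family in one cluster on the mouse X chromosome, and 9 members were described here, Xlr3a, Xlr3b and Xlr3c, Xlr4a, Xlr4b and Xlr4c, and Xlr5a, Xlr5b and Xlr5c. They were 9 of the 24083 gene symbols in the expression table and 9 of the 11817 genes tested, and they were chosen by their FPKM values, all of them being lower in Nanog R153A cells than in WT cells in these same libraries. Their own differences are therefore a description with standard errors and carry no test.

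Mouse embryonic stem cells, a pluripotent line from the early embryo, gave polyadenylated RNA for 3 libraries with the R153A form of Nanog and 3 libraries with wild-type Nanog (WT). NANOG is a homeodomain transcription factor of the pluripotency network, and R153A replaces an arginine of the protein with alanine. Both groups grew without further treatment on gelatin-coated dishes, in medium holding serum and the self-renewal cytokine LIF. The sources used here do not say how the R153A change was made or whether each library was its own culture or clone, so the p-values measure the spread between these libraries, which may be technical.

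Xlr stands for X-linked lymphocyte-regulated, after the lymphoid cells in which the first member was found. The proteins share the COR1 domain with SYCP3, a structural protein of the meiotic chromosome axis, and XLR3 was found on the XY body of mouse spermatocytes. Xlr3b, Xlr4b and Xlr4c are imprinted in mouse brain, where the copy on the maternal X chromosome is the more active one. In embryonic stem cells, germline and multicopy X-linked genes are known as targets of DNA methylation and of several chromatin repressors.

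The copies are close to identical within a subgroup, which bears both on how they may be controlled and on how well reads can tell them apart. The promoter windows of RefSeq on GRCm38.p6, a later build than the mm9 named in the submitters' processing notes, run from 250 bases before to 50 bases after each annotated start, and all 9 members matched. Of these, 4, written 5′ to 3′ on the gene's strand, are shown here. Xlr4b had the largest difference between the groups, Xlr4a is the nearly identical copy with a smaller one, Xlr5b stands for itself and Xlr5a, and Xlr3c had the smallest difference. Capitals mark exact matches to CCAAT, GCATGCGC, TCGCGAGA or CCGGAAG, read on either strand.
Xlr4b: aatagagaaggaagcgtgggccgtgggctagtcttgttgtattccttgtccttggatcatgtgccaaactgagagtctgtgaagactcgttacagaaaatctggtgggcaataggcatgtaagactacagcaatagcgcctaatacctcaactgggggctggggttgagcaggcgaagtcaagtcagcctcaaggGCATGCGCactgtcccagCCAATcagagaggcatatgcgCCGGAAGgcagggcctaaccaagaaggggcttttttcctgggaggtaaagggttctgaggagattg
Xlr4a: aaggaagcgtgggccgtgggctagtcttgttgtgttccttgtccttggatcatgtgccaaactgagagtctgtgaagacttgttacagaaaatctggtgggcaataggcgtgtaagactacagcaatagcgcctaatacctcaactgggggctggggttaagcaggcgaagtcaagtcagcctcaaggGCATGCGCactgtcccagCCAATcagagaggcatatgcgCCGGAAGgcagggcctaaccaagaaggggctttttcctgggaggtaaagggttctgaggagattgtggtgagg
Xlr5b: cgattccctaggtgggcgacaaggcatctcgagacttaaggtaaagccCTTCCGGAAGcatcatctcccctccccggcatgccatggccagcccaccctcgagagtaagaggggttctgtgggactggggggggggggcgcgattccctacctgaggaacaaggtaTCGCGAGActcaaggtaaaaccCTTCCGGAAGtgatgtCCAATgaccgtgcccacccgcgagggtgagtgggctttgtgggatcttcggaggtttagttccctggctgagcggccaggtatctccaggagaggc
Xlr3c: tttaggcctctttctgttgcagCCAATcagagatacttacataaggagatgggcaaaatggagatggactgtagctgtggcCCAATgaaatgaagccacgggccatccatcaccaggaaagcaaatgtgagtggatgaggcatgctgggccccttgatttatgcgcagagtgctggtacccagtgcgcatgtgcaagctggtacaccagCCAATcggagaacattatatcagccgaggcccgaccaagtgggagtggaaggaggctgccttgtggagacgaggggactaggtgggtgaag
These windows lie at chrX:73214083-73214382 on the plus strand (Xlr4b), chrX:73082458-73082757 on the minus strand (Xlr4a), chrX:73148591-73148890 on the plus strand (Xlr5b) and chrX:73265341-73265640 on the minus strand (Xlr3c).

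CCAAT, the core of the CCAAT box bound by NF-Y, was found in 8 of the 9 windows, all but that of Xlr5c, against 37.4% of the 32851 promoter windows in the table. GCATGCGC, which resembles the site of NRF1, was found in the windows of Xlr4a, Xlr4b and Xlr4c only, against 2.71% of all windows. TCGCGAGA, a palindromic element of CpG-rich promoters, was found only in the windows of Xlr5a and Xlr5b, against 0.995%. CCGGAAG, an ETS-type site, was found in the 3 Xlr4 windows and in those of Xlr5a and Xlr5b, against 8.86%. These motifs were chosen after the windows had been read, so their counts describe the windows and nothing more.

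Another 6 motifs were searched on both strands, GCGGGAA and TTTCCCGC (E2F-type sites, the second of which contains the first on its other strand), CACGTG (the E-box of MAX partners), TGACGTCA (the CREB site), ATGCAAAT (the octamer) and TATAAA. None of these letters occurred in any of the 9 windows, while between 1.07% (TTTCCCGC) and 13.6% (TATAAA) of all windows held them. The 3 Xlr4 windows were 98.1% to 98.6% identical over 270 to 293 aligned columns, and the Xlr5a and Xlr5b windows were 100% identical over 255 columns. Among the Xlr3 windows, identity was 87.8% to 94.3%, and between subgroups at most 36 columns could be aligned. The Xlr5c window aligned with those of Xlr5a and Xlr5b over 21 columns only, and its RefSeq start lies inside the longer GENCODE M21 gene model. CpG dinucleotides numbered 16 in the windows of Xlr5a and Xlr5b, 5 to 8 in the Xlr3 and Xlr4 windows and 1 in that of Xlr5c, against a median of 7 over all windows.

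Expression was given by the authors as FPKM, a count of fragments divided by the length of the gene and by the library total, a scale on which levels of different genes can be set side by side. The FPKM values summed to between 372761 and 382086 in the R153A libraries and to between 360152 and 381782 in the WT libraries, and the depth behind them is unknown because no read counts were used. All 10 markers of embryonic stem cells were tested, of which 7 were called lower and 1, Lin28a, higher (mean 99.0 FPKM in R153A cells and 43.4 FPKM in WT cells). Sall4 and Tdgf1 were not called. Nanog itself, whose level does not check a point change, had 119, 122 and 129 FPKM in R153A libraries, against 241, 259 and 258 FPKM in WT libraries, a log2 difference of -1.03 (adjusted p = 2.52e-08, limma with Benjamini-Hochberg adjustment). Of the 11817 genes tested, 4428 were called higher and 2634 lower at an adjusted p under 0.05. With median-ratio scaling in place of the deposited scale, 3411 were called higher and 4062 lower.

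All 9 Xlr genes reached 1 FPKM in each of the 6 libraries, and all 9 were lower in each R153A library than in every WT library. Over all genes tested, 25.2% had every R153A library below every WT library and 39.8% had every R153A library above. By the test, 59.8% were called, 37.5% of the genes higher and 22.3% lower, and all 9 members were among those called lower. As the genes were listed for this difference nothing is read from the comparison. On the log2(FPKM + 1) scale, which understates the change of low genes, the median difference of the 9 members was -1.05, beside 0.07 over all genes tested. The differences lay between -0.51 (Xlr3c) and -1.71 (Xlr4b), with standard errors between 0.0656 and 0.115. As many as 6 members were lower by at least 1, as were 2.32% of the genes tested, and 7.86% of the genes tested had a difference at or below that of Xlr3c, the member nearest to 0.

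**Figure D1:**
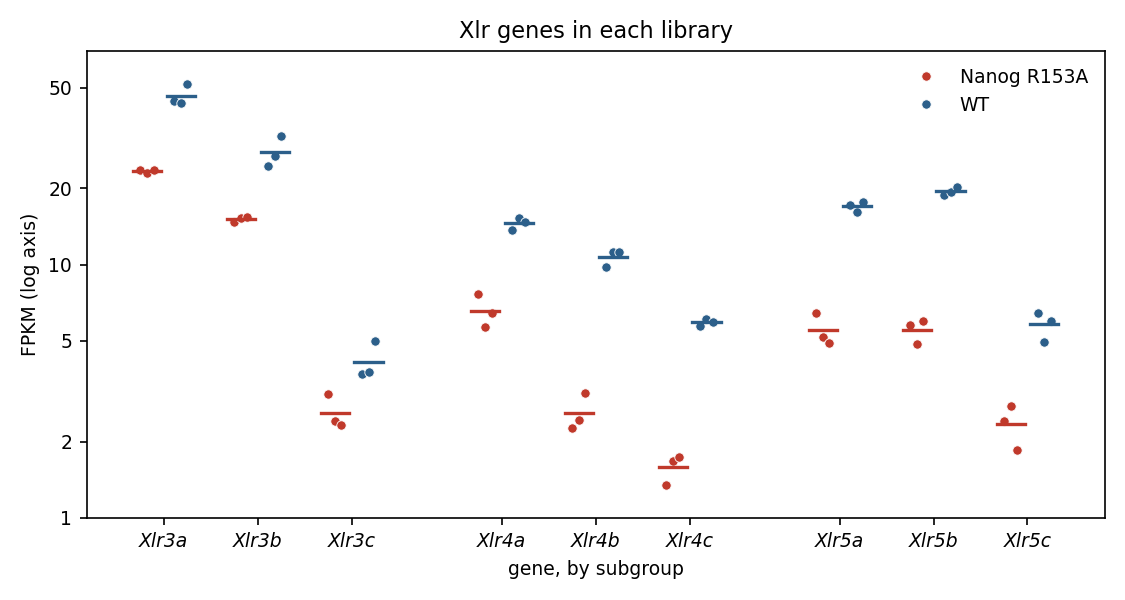
FPKM (log axis) of each Xlr gene in the 3 Nanog R153A libraries (red, left of each pair) and the 3 WT libraries (blue, right), with the group mean as a line. The R153A points lie under the WT points for every gene, with Xlr3a at the top in both groups (23.5 FPKM in R153A, 46.5 FPKM in WT) and the narrowest gap at Xlr3c.

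Xlr3a was the most abundant copy in both groups. It had 23.6, 23.1 and 23.7 FPKM in R153A libraries, against 44.2, 43.6 and 51.7 FPKM in WT libraries, a log2 difference of -0.95 (SE 0.0656). The R153A libraries lay within 1 FPKM of each other, and the third WT library stood above the other WT libraries. Xlr3b, one of the copies imprinted in mouse brain, had 14.8, 15.3 and 15.5 FPKM in R153A libraries, against 24.6, 26.9 and 32.2 FPKM in WT libraries, a difference of -0.83 (SE 0.0835). Its groups did not overlap, and the third WT library was again the highest. For Xlr3c, values of 3.07, 2.41 and 2.33 FPKM in R153A libraries stood against 3.68, 3.75 and 4.99 FPKM in WT libraries, a difference of -0.51 (SE 0.112). This was the closest pair of groups in the family, with the highest R153A library below the lowest WT library by less than 1 FPKM.

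Xlr4a, the most abundant Xlr4 copy, had 7.66, 5.68 and 6.42 FPKM in R153A libraries, against 13.7, 15.4 and 14.7 FPKM in WT libraries, a difference of -1.05 (SE 0.0909). Xlr4b had 2.27, 2.43 and 3.11 FPKM in R153A libraries, against 9.78, 11.2 and 11.2 FPKM in WT libraries, a difference of -1.71 (SE 0.0948) and the largest in the family. Xlr4c had 1.35, 1.67 and 1.74 FPKM in R153A libraries, against 5.71, 6.09 and 5.95 FPKM in WT libraries, a difference of -1.42 (SE 0.0809). Mean FPKM in R153A cells was thus 45.2% of the WT mean for Xlr4a, 24.3% for Xlr4b and 26.9% for Xlr4c. The last pair are the Xlr4 copies that are imprinted in mouse brain. Within a library, the ratio of Xlr4a to Xlr4b was 3.37, 2.33 and 2.06 in R153A libraries, against 1.40, 1.37 and 1.31 in WT libraries. The FPKM of these copies, whose promoter windows are nearly identical, was thus not lower in equal proportion. FPKM of a copy depends on how shared reads were counted. Of the 50-base stretches of Xlr4a, 10.8% also occur in Xlr3b, against 5.74% of those of Xlr4b. The part of shared reads in this ratio was not tested.

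Xlr5a had 6.47, 5.20 and 4.88 FPKM in R153A libraries, against 17.1, 16.1 and 17.7 FPKM in WT libraries, a difference of -1.47 (SE 0.0876). Xlr5b had 5.76, 4.84 and 6.01 FPKM in R153A libraries, against 18.9, 19.4 and 20.3 FPKM in WT libraries, a difference of -1.66 (SE 0.0756). These copies share 255 identical promoter columns, and their ratio was 1.12, 1.07 and 0.812 in R153A libraries, against 0.906, 0.830 and 0.872 in WT libraries. The ratios of the groups overlapped, unlike those of Xlr4a to Xlr4b. Xlr5c had 2.41, 2.78 and 1.86 FPKM in R153A libraries, against 6.47, 4.94 and 6.003 FPKM in WT libraries, a difference of -1.03 (SE 0.115). It was the lowest Xlr5 copy in every library.

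**Figure D2:**
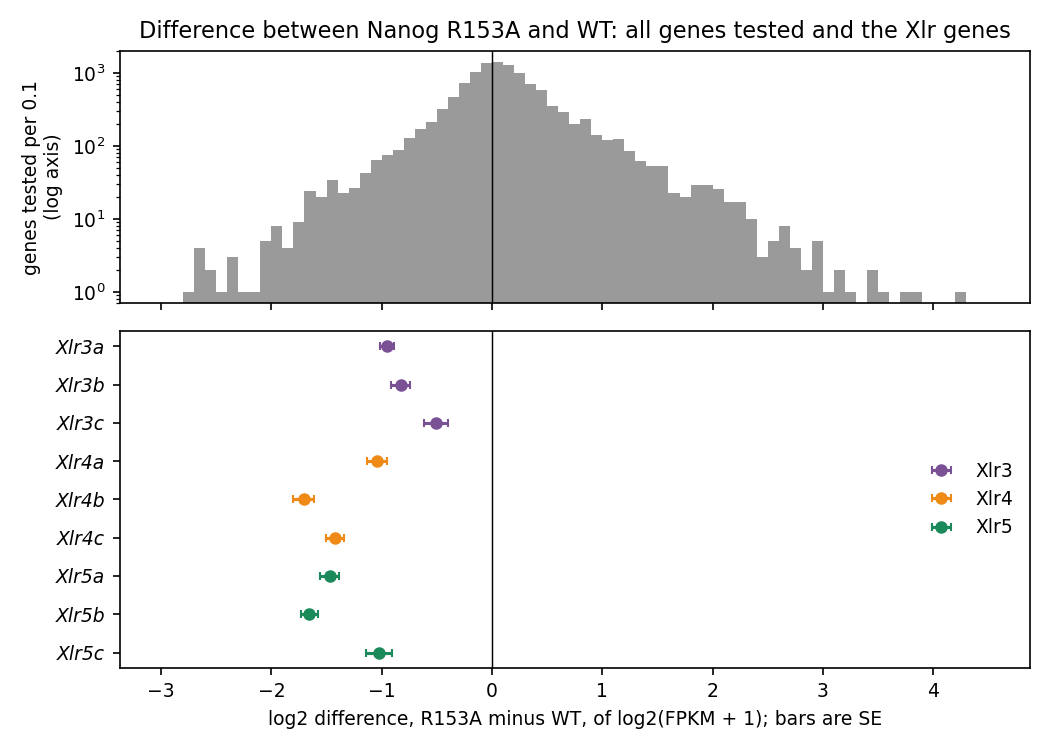
Top, number of genes tested per 0.1 of log2 difference (R153A minus WT, log2(FPKM + 1) scale, log count axis); bottom, the same difference for each Xlr gene with its standard error, coloured by subgroup. All 9 lie left of 0, from -0.51 for Xlr3c to -1.71 for Xlr4b, in the lower tail of the distribution whose median is 0.07.

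Set by subgroup, the median difference was -0.83 for Xlr3, -1.42 for Xlr4 and -1.47 for Xlr5. The summed FPKM of the 9 genes was 67.3, 63.4 and 65.6 in R153A libraries, against 144, 147 and 165 in WT libraries, so that the R153A mean was 43.0% of the WT mean. Summed over the Xlr3 copies, R153A libraries held 41.4, 40.8 and 41.5 FPKM, against 72.5, 74.2 and 88.9 FPKM in WT libraries, or 52.5% of the WT mean. The same share was 34.5% for the summed Xlr4 copies and 31.6% for the summed Xlr5 copies. Such sums are less affected than single copies by how shared reads were divided. Xlr3 was the least lowered subgroup by medians and by sums, but the order of Xlr4 and Xlr5 depended on the measure. By these medians and sums, Xlr5 was the more lowered of the 2. With 0.1 in place of 1 added to FPKM before the logarithm, the Xlr4 median was -1.84 (Xlr4c) and the Xlr5 median -1.61 (Xlr5a). As a percentage of the WT mean, Xlr4a, Xlr4b and Xlr4c stood at 45.2%, 24.3% and 26.9% in R153A cells. Xlr5a, Xlr5b and Xlr5c stood at 32.5%, 28.3% and 40.5%.

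The make-up of the family's summed FPKM differed accordingly, with the limit on shared reads given below. Xlr3 copies made up 63.1% ± 1.44 of the summed FPKM in R153A cells and 51.5% ± 2.09 in WT cells (SD, n = 3 each). Xlr4 copies made up 16.5% ± 0.921 in R153A cells and 20.6% ± 1.44 in WT cells, and Xlr5 copies 20.5% ± 1.16 in R153A cells and 27.9% ± 1.42 in WT cells. Taken within each library, the ratio of summed Xlr4 to summed Xlr3 was 0.273, 0.240 and 0.272 in R153A libraries, against 0.403, 0.440 and 0.358 in WT libraries. The ratio of summed Xlr5 to summed Xlr3 was 0.354, 0.315 and 0.307 in R153A libraries, against 0.587, 0.546 and 0.496 in WT libraries. Neither ratio overlapped between the groups, and a ratio within a library does not depend on the scaling of that library.

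**Figure D3:**
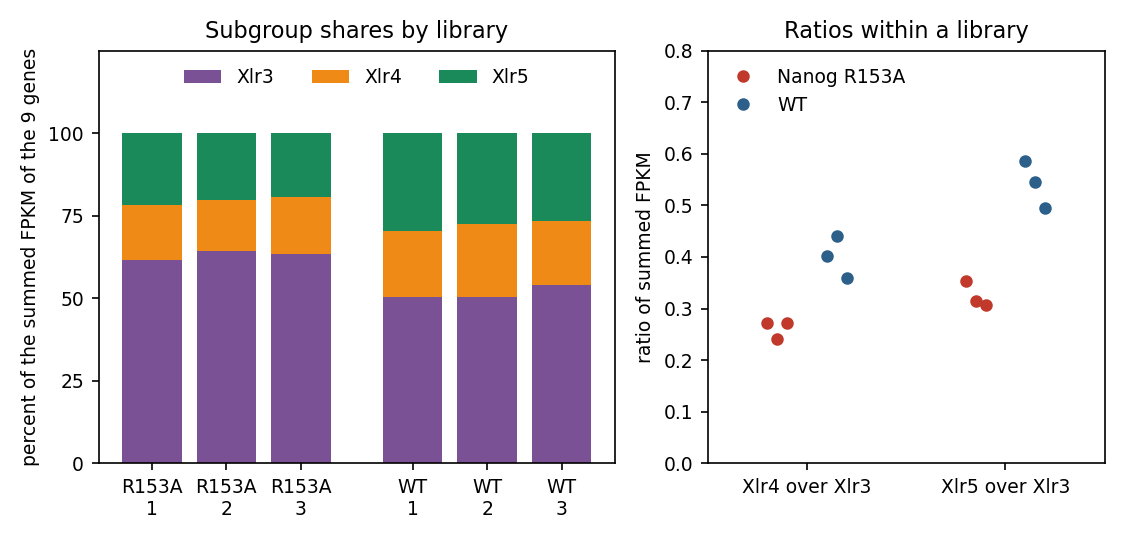
Left, percent of the summed FPKM of the 9 genes held by Xlr3, Xlr4 and Xlr5 copies in each library, R153A libraries first; right, ratios of summed Xlr4 and summed Xlr5 to summed Xlr3 FPKM in each R153A (red) and WT (blue) library. Xlr3 holds 63.1% on average in R153A cells and 51.5% in WT cells, and both ratios are lower in every R153A library than in every WT library.

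The order of the copies by FPKM also differed, though levels of single copies are uncertain for the reasons given below. In R153A cells, mean FPKM ran from Xlr3a through Xlr3b, Xlr4a, Xlr5b, Xlr5a, Xlr4b, Xlr3c and Xlr5c to Xlr4c, and the libraries overlapped between the neighbours Xlr4a and Xlr5b, Xlr5b and Xlr5a, Xlr4b and Xlr3c, and Xlr3c and Xlr5c. WT cells had the order Xlr3a, Xlr3b, Xlr5b, Xlr5a, Xlr4a, Xlr4b, Xlr4c, Xlr5c and Xlr3c, with overlap between Xlr4c and Xlr5c and between Xlr5c and Xlr3c. Xlr3c was thus the lowest copy on average in WT cells (4.14 ± 0.733 FPKM, SD, n = 3), while in R153A cells Xlr4c was (1.59 ± 0.208 FPKM). The coefficient of variation of a copy between libraries of a group ran from 1.39% to 19.6% in R153A cells (median 15.2%) and from 3.24% to 17.7% in WT cells (median 7.68%). The third WT library was the highest WT library for 5 of the 9 genes, the Xlr3 copies among them.

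How far these values separate the copies depends on reads that fall in bases unique to one copy. Transcripts of one subgroup in GENCODE M21 were 94.6% to 99.3% identical along their aligned length. Of all 50-base stretches of a transcript, the share found in no other annotated gene was 47.8% for Xlr4c, 30.5% for Xlr4a, 28.3% for Xlr3a, 27.9% for Xlr3c, 26.9% for Xlr4b, 15.1% for Xlr5c, 13.1% for Xlr5a, 9.79% for Xlr5b and 6.67% for Xlr3b. With 100-base stretches, the share lay between 19.8% (Xlr5b) and 62.2% (Xlr4c). The remaining stretches occurred mainly in copies of the same subgroup and in annotated Xlr pseudogenes. Xlr5 transcripts shared no 50-base stretch with Xlr3 or Xlr4 transcripts. In GENCODE M21 on GRCm38, the Xlr5a gene model runs over Xlr5b, Xlr3b, Xlr4b, Xlr4c, Xlr3c and Xlr5c. It shares 101 exon bases with Xlr5c on the same strand and none with the others. The annotation behind the FPKM values is not stated. Read length and the treatment of reads that match several places are not stated in the sources, so levels of single copies are uncertain, those of Xlr3b and Xlr5b most of all, and the subgroup sums are less affected unless shared reads were discarded.

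**Figure D4:**
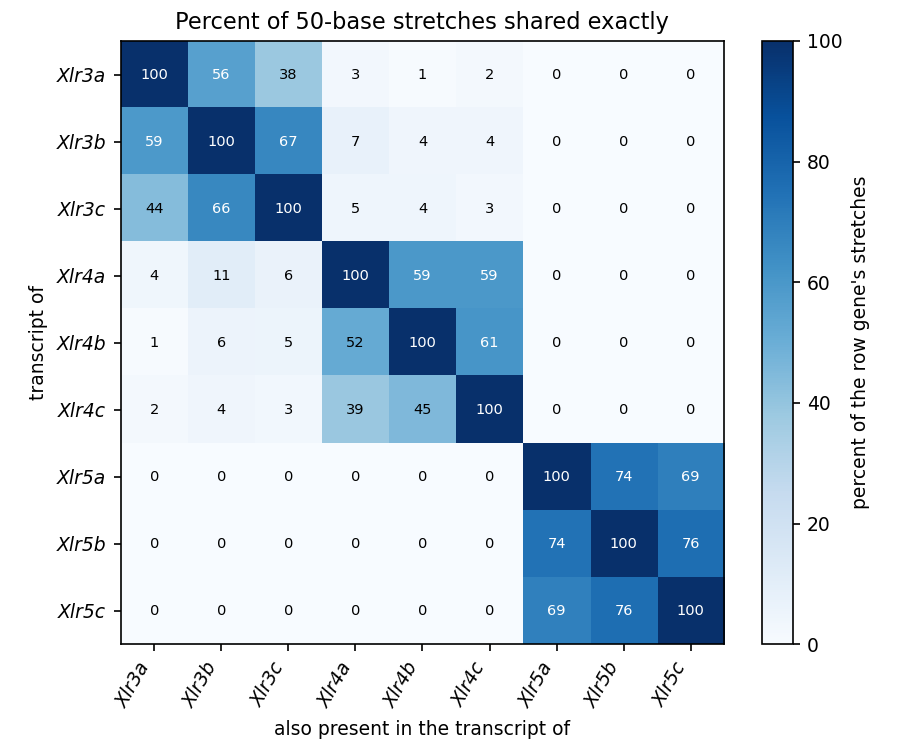
Percent of the 50-base stretches of each transcript (rows) that occur exactly in the transcript of each other member (columns). Sharing falls in 3 blocks, one for each subgroup, with 0 between Xlr5 and the other subgroups and between 0.564% (Xlr3a in Xlr4b) and 10.8% (Xlr4a in Xlr3b) between Xlr3 and Xlr4.

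Relatives that encode COR1-domain proteins outside the 9 copies were looked at as well. Sycp3 had 13.3, 12.5 and 13.0 FPKM in R153A libraries, against 10.8, 9.39 and 11.5 FPKM in WT libraries, so it was higher, by 0.28 on the log2 scale (adjusted p = 0.00724, limma with Benjamini-Hochberg adjustment). That call was lost with median-ratio scaling (adjusted p = 0.0822), with quantile normalization (0.0503) and with no filter on low values (0.0537). Xlr, the founding member, had 1.27, 1.09 and 0.842 FPKM in R153A libraries, against 1.02, 0.458 and 0.896 FPKM in WT libraries, and its groups overlapped. Its difference of 0.21 was not called (adjusted p = 0.170). Slx had at most 0.0296 FPKM, and Slxl1 and Sly were listed at 0 in all 6 libraries. Neither of the 2 relatives that passed the filter was lower on average in R153A cells.

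Along the X chromosome, in the gene order of RefSeq, the copies lie as Xlr4a, Xlr3a, Xlr5a, then Xlr5b, Xlr3b, Xlr4b, then Xlr4c, Xlr3c, Xlr5c, each run holding 1 copy of each subgroup, and they enclose 4 other protein-coding genes. F8a, which encodes a huntingtin-associated protein, lies between Xlr4b and Xlr4c and had 4.86, 4.75 and 5.36 FPKM in R153A libraries, against 3.99, 3.97 and 4.10 FPKM in WT libraries. It was higher by 0.25 (adjusted p = 0.00923, limma with Benjamini-Hochberg adjustment), a call lost with median-ratio scaling (adjusted p = 0.0520), with quantile normalization (0.174) and without the third R153A library (0.0537). The copies on either side of it, Xlr4b and Xlr4c, had differences of -1.71 and -1.42. Spin2d stayed under 0.2 FPKM.

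Gm14685 and DXBay18, between Xlr5a and Xlr5b, were both lower. Gm14685 had 0.611, 0.582 and 0.717 FPKM in R153A libraries, against 1.52, 2.01 and 1.79 FPKM in WT libraries, a difference of -0.76 (adjusted p = 2.64e-05, limma with Benjamini-Hochberg adjustment). For DXBay18 the values were 0.566, 0.614 and 0.740 FPKM in R153A libraries, against 1.54, 1.98 and 1.86 FPKM in WT libraries (difference -0.77, adjusted p = 2.45e-05). They cannot be counted as independent genes, since 96.4% of the 50-base stretches of either transcript occur in the other, and they passed the filter only through WT libraries. In GENCODE M21 on GRCm38, the Xlr5b window shown above lies inside DXBay18 and the Xlr5a window inside Gm14685, each on the opposite strand. Neither shares a 50-base stretch with an Xlr transcript, but the sources do not say whether strand was used in counting.

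Outside the span, genes differed in both directions. Of the 10 annotated protein-coding genes on each side, 12 were tested, of which 5 were called higher and 4 lower, with a median difference of 0.04. Gabre, 1 of the 5, passed the filter only through R153A libraries. Pnma5, a paraneoplastic antigen family gene separated from Xlr4a by Pnma3, had 46.5, 46.6 and 50.3 FPKM in R153A libraries, against 57.4, 62.2 and 66.1 FPKM in WT libraries, a difference of -0.37 (adjusted p = 3.07e-04, limma with Benjamini-Hochberg adjustment). Zfp275, a zinc-finger gene just after Xlr5c, had 9.09, 8.68 and 9.12 FPKM in R153A libraries, against 6.92, 7.08 and 6.71 FPKM in WT libraries, a difference of 0.33 (adjusted p = 6.52e-04). Zfp185, a LIM-domain gene before Pnma5, was higher by 0.21 (adjusted p = 0.0122), which median-ratio scaling, quantile normalization and the fit without the third R153A library each took over 0.05. Pnma3, Zfp92 and Trex2 stayed under 1 FPKM. Of 430 other X-linked genes tested, 37.4% were called higher and 31.9% lower, with a median difference of -0.003, beside 37.5% and 22.1% of 10713 autosomal genes with a median of 0.07.

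**Figure D5:**
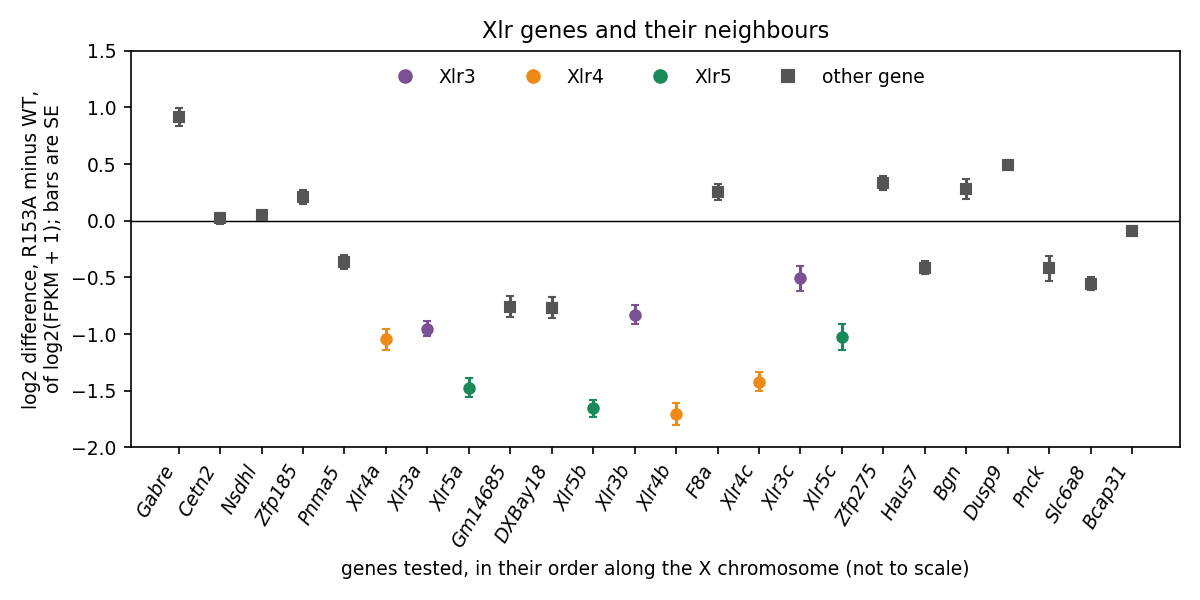
Log2 difference (R153A minus WT, log2(FPKM + 1) scale) with its standard error for every tested gene from Gabre to Bcap31, in gene order along the X chromosome and not to scale. Xlr genes (circles, by subgroup) lie between -0.51 and -1.71, while the other genes (grey squares) lie on both sides of 0, from -0.77 for DXBay18, which passed the filter only through WT libraries, to 0.91 for Gabre, which passed it only through R153A libraries.

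Other X-linked clusters known for expression in germ cells and placenta had few members at 1 FPKM or more. Of 30 Rhox homeobox genes in the table, 27 stayed under 1 FPKM in all libraries. The 3 tested were all called lower, as were 22.3% of all genes tested and 31.9% of other X-linked genes tested. Rhox9 had 7.79, 7.67 and 8.14 FPKM in R153A libraries, against 12.7, 12.2 and 13.9 FPKM in WT libraries, a difference of -0.65 (adjusted p = 6.43e-06, limma with Benjamini-Hochberg adjustment). Rhox6 had 9.67, 8.74 and 10.1 FPKM in R153A libraries, against 12.7, 11.3 and 13.4 FPKM in WT libraries (difference -0.36). Rhox1 also differed by -0.36 (adjusted p = 0.00656), a call lost without the filter on low values (0.0599). In a list of X-linked testis and multicopy genes, 8 of 36 were tested, with a median of -0.31. Of these 8, 1 was called higher (12.5%) and 5 lower (62.5%). The shares called higher were 37.5% over all genes tested and 37.4% over other X-linked genes tested. Without the second or the third WT library, 3 of 7 genes of the list were called lower. Fthl17, 1 of the 5, passed the filter only through WT libraries. Tex11, a meiotic recombination gene, had 0.419, 1.24 and 0.460 FPKM in R153A libraries, against 2.69, 2.48 and 2.12 FPKM in WT libraries. Nxf3, an RNA export factor gene, moved the other way, with 7.29, 6.07 and 7.90 FPKM in R153A libraries, against 2.31, 3.00 and 3.09 FPKM in WT libraries (difference 1.09).

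Germline genes that DNA methylation silences in somatic cells were set beside the family, as a list of 36 of which 25 were tested. Of these, 16 were called lower (64.0%) and 3 higher (12.0%), with a median of -0.54, beside 22.3% lower and 37.5% higher over all genes tested. Among those calls, Dazl and Mov10l1 (lower) passed the filter only through WT libraries and Dmrtb1 (higher) only through R153A libraries. Tuba3a, a testis tubulin, had 2.83, 2.41 and 2.77 FPKM in R153A libraries, against 11.5, 12.2 and 13.2 FPKM in WT libraries, a difference of -1.86. Hormad2, a protein of the meiotic chromosome axis, had 0.891, 0.728 and 1.02 FPKM in R153A libraries, against 5.37, 5.07 and 5.56 FPKM in WT libraries (difference -1.75). Tex14, which encodes a protein of the bridges between male germ cells, had 1.64, 1.91 and 1.71 FPKM in R153A libraries, against 7.23, 7.85 and 7.41 FPKM in WT libraries (difference -1.63). Sycp3 of the same list was higher, with the limits given above. Tex11 stands in this list as well.

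Among 31 repressors of germline and multicopy genes, 11 were called higher (35.5%) and 13 lower (41.9%), with a median of -0.11. Over all genes tested, 37.5% were called higher and 22.3% lower, so the share called higher was near that of all genes. Dnmt3b, a de novo DNA methyltransferase, had 124, 116 and 128 FPKM in R153A libraries, against 48.8, 54.4 and 50.4 FPKM in WT libraries, a difference of 1.25 (adjusted p = 1.34e-08, limma with Benjamini-Hochberg adjustment). Pphln1, the periphilin subunit of the HUSH silencing complex, had 14.2, 12.5 and 13.9 FPKM in R153A libraries, against 5.28, 5.36 and 5.73 FPKM in WT libraries (difference 1.17). H3f3b, one of the genes for histone H3.3, differed by 0.67. The list held members that moved in both directions, and its relation to the Xlr levels was not tested.

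Regulators of imprinting and of X inactivation were looked at because some copies are imprinted in brain. Of 8 tested, 5 were called higher (62.5%) and 3 lower (37.5%), beside 37.5% higher and 22.3% lower over all genes tested. Zfp57, which maintains methylation at imprinted regions, had 32.6, 32.7 and 32.9 FPKM in R153A libraries, against 70.1, 88.6 and 90.8 FPKM in WT libraries (difference -1.31). The other genes called lower, Ctcf and Dppa3, differed by -0.16 each, and 1 gene instead of 3 was called lower without the first R153A, the second R153A or the second WT library. Rlim, an X-linked activator of Xist, had 89.2, 89.8 and 93.9 FPKM in R153A libraries, against 36.9, 37.7 and 36.4 FPKM in WT libraries (difference 1.27). Xist had 5.57, 4.89 and 5.81 FPKM in R153A libraries, against 1.96, 2.10 and 1.86 FPKM in WT libraries (difference 1.11). It overlaps its antisense partner Tsix, from which it cannot be told apart without strand. Both stand among the 5 called higher, so these calls cannot all be counted as independent.

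Markers of other cell types were read beside these values, since in bulk RNA fewer cells of a type and less RNA per cell cannot be told apart. Of 11 lymphoid markers, 8 stayed under 1 FPKM in all libraries, Ptprc and Cd3e stayed under 0.2 FPKM, and Rag1 was listed at 0. Lck, a lymphocyte kinase, was the 1 lymphoid marker tested and had 4.74, 4.70 and 4.20 FPKM in R153A libraries, against 6.30, 7.03 and 7.22 FPKM in WT libraries. Summed over 10 genes, feeder and fibroblast markers had 10.5 to 11.3 FPKM in R153A libraries and 6.68 to 9.003 FPKM in WT libraries. Of these, 6 stayed under 1 FPKM in all libraries. Of 4 tested, Col1a1 (mean 2.82 FPKM in R153A cells and 1.17 FPKM in WT cells) and Col1a2 (1.70 and 0.707 FPKM) were called higher. Col1a2 passed the filter only through R153A libraries. Thy1 (3.19 and 3.79 FPKM) and S100a4 (2.05 and 1.67 FPKM) were not called. Two-cell-like markers summed to 5.96 to 7.92 FPKM in R153A libraries and to 0.252 to 0.441 FPKM in WT libraries. Of these 10 genes, 7 stayed under 1 FPKM in all libraries. The 2 tested, Zscan4f (mean 2.29 FPKM in R153A cells and 0.102 FPKM in WT cells) and Zscan4c (1.61 and 0.0699 FPKM), were called higher. Both passed the filter only through R153A libraries. Germ cell markers summed to 39.2 to 40.7 FPKM in R153A libraries and to 44.4 to 46.7 FPKM in WT libraries. Of 6 germ cell markers tested, 2 were called lower (Stra8 and Dazl), 1 higher (Sycp3) and 3 were not called (Ddx4, Sycp1 and Mael). Among all genes tested, 22.3% were called lower and 37.5% higher. The number of germ cell markers called lower ranged from 0 to 4 over the alternatives, some of which tested fewer or more of them. It was 0 of 3 tested with a filter of 5 FPKM, which neither Stra8 nor Dazl passed. Without any one WT library it was 1 of 5 tested, since Dazl passed the filter only through WT libraries. With median-ratio scaling it was 4 of 6. Stra8 and Dazl kept their calls in every alternative that tested them. Stra8, a gene of meiotic entry, had 1.12, 1.59 and 1.25 FPKM in R153A libraries, against 5.78, 4.70 and 6.57 FPKM in WT libraries. The part of these markers in the Xlr differences was not tested.

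The genes whose pattern over the 6 libraries was most like the summed Xlr level were found by the root mean square difference of centred log2(FPKM + 1). The ranking covered 11265 tested genes outside the family, leaving out symbols made of Gm and digits or ending in Rik. Cpt1a, the carnitine palmitoyltransferase of fatty acid oxidation, came first with 0.0293, and had 1.44, 1.37 and 1.44 FPKM in R153A libraries, against 4.35, 4.68 and 5.11 FPKM in WT libraries. Gabbr1 (a GABA-B receptor subunit) and Plcd1 (a phospholipase C) followed with 0.0523 each, then Echdc2 with 0.0532 and Kirrel2 with 0.0534. The likeness rests mainly on the step between the 2 groups, which these genes share with the family.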

How the data were processed

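RNA-seq of polyadenylated RNA from 6 libraries was analysed, 3 with Nanog R153A and 3 WT. The authors deposited FPKM values, 1 column per library and 1 row per gene symbol. The build mm9 and the tools edgeR 3.26.8, HTSeq 0.11.2, SAMtools 1.9 and Bowtie2 2.3.4.3 are named per the submitters' processing notes, without roles. How FPKM was computed, the annotation, the use of strand, read length and the treatment of reads matching several places are not stated there. The low values showed no step of 1 read, so depth is unknown and no count test was run. Since Hmgcs1, a widely used gene of sterol synthesis, has a 0 in each of the 6 columns, a 0 can be a failed estimate.

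Values were used as deposited, as log2(FPKM + 1). The 11817 genes that reached 1 FPKM in 3 or more libraries were fitted with limma 3.58.1 under R 4.3.3 (trend in the variance, moderated). Tests were 2-sided, p-values were adjusted by Benjamini-Hochberg over those genes, and adjusted values under 0.05 were calls. The Xlr members and the 11 gene lists were chosen with earlier results of these data known, so members carry standard errors and no test. Lists are given as counts of tested genes and medians, with no set test, and several genes, such as Sycp3 and Tex11, stand in more than 1 list.

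The named genes were the 9 members, every symbol beginning with Xlr, the COR1 relatives, up to 3 called members of each other list by size of difference (the 2 most abundant where none was called), the 3 nearest neighbours on each side, the 5 genes most alike in pattern, and Nanog. F8a, Gm14685, DXBay18, Spin2d, Gabre, Bcap31, Ctcf, Dppa3, Mov10l1, Dmrtb1, Sall4, Tdgf1, Ddx4, Sycp1, Mael, Thy1, S100a4 and the lymphoid markers other than Lck were named after their values were seen.

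Gene order and promoters came from RefSeq (GRCm38.p6) and transcripts from GENCODE M21, matched by symbol, and a chromosome was found for 22705 of 24083 symbols (94.3%). Pairs of sequences were aligned locally with Biopython 1.88 (match 2, mismatch -3, gap opening -5, gap extension -2). Protein sequences were not used here.

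In simulated libraries for this comparison (11817 genes), log2 shifts of 0.25, 0.5, 1 and 2 were given to 50 genes each. All other genes were left without a shift. The fit found 18%, 72%, 94% and 100% of the shifted genes, in that order. In the data 7062 genes were called, so the adjustment was less strict there than in the simulation. These shares therefore do not measure the sensitivity of the real fit, where Ctcf and Dppa3 were called at -0.16 each. Alternatives were pseudocounts of 0.1 and 0.5, no filter, a filter of 5 FPKM, median-ratio scaling, quantile normalization, rescaling to TPM, limma without a trend, the replicate number as a block, copies summed within a subgroup, and leaving out each library. Figures were drawn with matplotlib 3.10.9 in Python 3.11.15.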

Additional observations from a re-analysis of the deposited data

How the results depend on the processing

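Every Xlr member had a difference below 0 under each alternative that gave it a value. The median of the members, -1.05 with the settings of the report, was -1.28 with a pseudocount of 0.1, -1.15 with one of 0.5, -1.15 with median-ratio scaling, -1.19 with quantile normalization and -1.21 after rescaling to TPM. With a filter of 5 FPKM it was -1.42 over 7 members, since Xlr3c and Xlr5c were dropped, and with copies summed within a subgroup it was -1.45 over 3 sums. Leaving out 1 library at a time gave -1.15 to -1.03. Among single members, the values of Xlr4b ranged from -2.01 to -1.64 and those of Xlr3c from -0.68 to -0.39. Median-ratio scaling took the median of all genes tested to -0.04, against 0.07, so a difference near 0 depends on the scale. Genes called numbered 7062, and 4860 (filter of 5 FPKM, fewer genes tested) to 7485 over the alternatives, with 2901 higher under the 5 FPKM filter and 4062 lower with median-ratio scaling.

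The replicate numbers gave no sign of a pairing. Deviations from the group means correlated at -0.0487, -0.00946 and 0.06 for libraries of the same number. Between libraries of different numbers, the values ran from -0.0539 to 0.0771. Whether libraries of the same number shared a batch is not in the labels. With the replicate number as a block, 6876 genes were called and the median of the members was again -1.05.

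Depth is unknown, so no counting error can be given. Values of single copies depend on how reads shared between copies were counted, which the sources do not state. Calls of small differences, such as those of Sycp3, F8a, Zfp185 and Rhox1, depended on the scaling, the filter or 1 library.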
